A study of Mus musculus with 18 samples.

Results

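The transcripts described here are 50 genes of the intestinal epithelium other than defensins and fatty acid binding proteins, read in mononuclear phagocytes sorted from the small intestine. They are absorptive enterocyte genes and genes of the goblet, Paneth and enteroendocrine lineages, taken by symbol as all probes annotated to the listed gene alone. All 50 were on the array, through 55 probes, among 22180 genes and 33793 probes in all. The choice used no measured value of the arrays, but it was made with earlier results of these data known.

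The 18 arrays held 6 groups of 3: GFP-plus and GFP-minus cells of 3 sorted populations. All came from VDTR mice of both sexes, injected intraperitoneally with diphtheria toxin at 2 ng/kg and killed 4 hours later, with no age given in the sources used here. In this line, as background, the villin promoter drives a diphtheria toxin receptor joined to GFP in the epithelium, so that GFP in a phagocyte marks material taken up from epithelial cells. Every group carried the transgene and received the toxin, so no group analysed here is free of either. The gate common to all was live, CD45+, CD11c+ and MHCII+. CD103 dendritic cells were further gated on CD103 and CD24, the CD103 macrophages on CD103, CD11b and CD64, and the other macrophages on CD11b and CD64. The labels give an "n value" of 4 whose meaning they do not state, and they do not tell whether replicates are different mice. The p-values below therefore refer to the scatter among these samples, which may be technical. Each gene's scatter was estimated from all 6 groups together, so its GFP difference has the same SE in each population.

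As background, the villus is covered mainly by absorptive enterocytes, which carry a brush border of digestive enzymes and transporters and pack dietary fat into lipoproteins. Goblet cells secrete mucus, Paneth cells at the crypt base secrete antimicrobial proteins, and enteroendocrine cells secrete hormones. Villus cells are shed continuously, and phagocytes beneath them engulf dying cells.

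The deposited values were on a log scale taken here as log2 and had each probe's median of all 18 arrays at 0. Zero is thus a probe's own middle value, and neither a level nor detection above background can be read. A value of 1 is thus 2-fold above the gene's median array. In bulk arrays of this kind, fewer cells carrying a transcript and less of it per cell cannot be told apart. Between dendritic cells and macrophages, 13 of 13 measured dendritic cell genes were above 0. Past the threshold were 10 of them, where 3.14% of all genes were called higher. All 14 measured macrophage genes were called lower, against 6.91% of all genes. The first list holds Itgae and Cd24a and the second Fcgr1 and Itgam. These encode gate markers, so that part of the counts followed from the sort. Between the 2 macrophage gates 0 of 7 genes of the sort markers passed, in a comparison that called 0.0721% of all genes. At an unadjusted p under 0.05 there were 2 of 7 (28.6%, against 5.51% of all genes, limma). Itgae, which encodes CD103, was at 1.19 in CD103 macrophages relative to the other macrophages with an adjusted p of 0.79 in limma. T and innate lymphocyte genes lay higher in CD103 macrophages for 11 of 13, with Gzma past the threshold. The interquartile range over all probes ran between 0.256 and 0.578 on the 18 arrays, the widest on GFP-plus CD103 dendritic cell replicate 1. In dendritic cells it was 0.394 to 0.578 on GFP-plus arrays, against 0.278 to 0.375 on GFP-minus arrays. The part of this wider spread in the GFP differences was not tested.

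No member of the 50 differed between GFP-plus and GFP-minus cells in any population at an adjusted p under 0.05. In CD103 dendritic cells 0 of 50 passed, against 1.58% of all genes (limma, Benjamini-Hochberg adjustment over 22180 genes). In CD103 macrophages 0 of 50 passed, against 0.0541% of all genes, and in the other macrophages 0 of 50, against 0.0271%. Averaged over the populations, 0 of 50 passed against 0.41% of all genes, and the F-test for a GFP difference that varies with the population called 0 of 50 against 0.361%. At an unadjusted p under 0.05 the members counted 7 of 50 in dendritic cells (14%, against 15.4% of all genes), 3 in CD103 macrophages (6%, against 9.2%) and 0 in the other macrophages (against 6.16%). The same count was 4 for the average (8%, against 10.3%) and 2 for the F-test, where 12.6% of all genes had such a p. The share of members was thus at or below that of all genes in each of these comparisons.

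The members were spread on both sides of 0. The GFP-plus minus GFP-minus difference was above 0 for 31 members and below 0 for 19 in dendritic cells, with a median of 0.055 against -0.022 over all genes. In CD103 macrophages 28 were above 0 and 22 below, with a median of 0.067 against 0.016. In the other macrophages 24 were above 0 and 26 below, with a median of -0.020 against 0.011. These medians were not stable when single arrays were left out, running between 0.019 and 0.139 in dendritic cells, between -0.00026 and 0.1 in CD103 macrophages and between -0.025 and 0.045 in the other macrophages. The GFP-plus arrays lay wholly above the GFP-minus arrays for 6 members in dendritic cells (12%, against 8.66% of all genes) and wholly below for 2 (4%, against 11.5%). In CD103 macrophages 2 lay wholly above (4%, against 7.54%) and 3 wholly below (6%, against 5.44%), and in the other macrophages 5 lay above (10%, against 9.63%) and 1 below (2%, against 6.24%).

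The size of difference in array signal that the arrays leave room for can be read from the intervals. Detection above background cannot be read, so they set no limit on a transcript whose probe was at background. The 95% confidence interval of the difference ended below 1, that is below a 2-fold excess in GFP-plus cells, for 42 of the 50 members in dendritic cells, 43 in CD103 macrophages and 40 in the other macrophages. The interval lay between -1 and 1 for 38 members in each population. As the SE of a gene is shared, its interval in 1 population also reflects its scatter in the others. In dendritic cells the 8 members whose interval reached past 1 were Cdh17, Lgals4, Apoa1, Reg3b, Reg3g, Agr2, Spink4 and Lyz1. Reg3g itself lay between -0.19 and 0.13 on the dendritic cell arrays. The width of its interval there, -1.17 to 1.14, drew on macrophage arrays at 2.63 and 1.44.

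**Figure D1:**
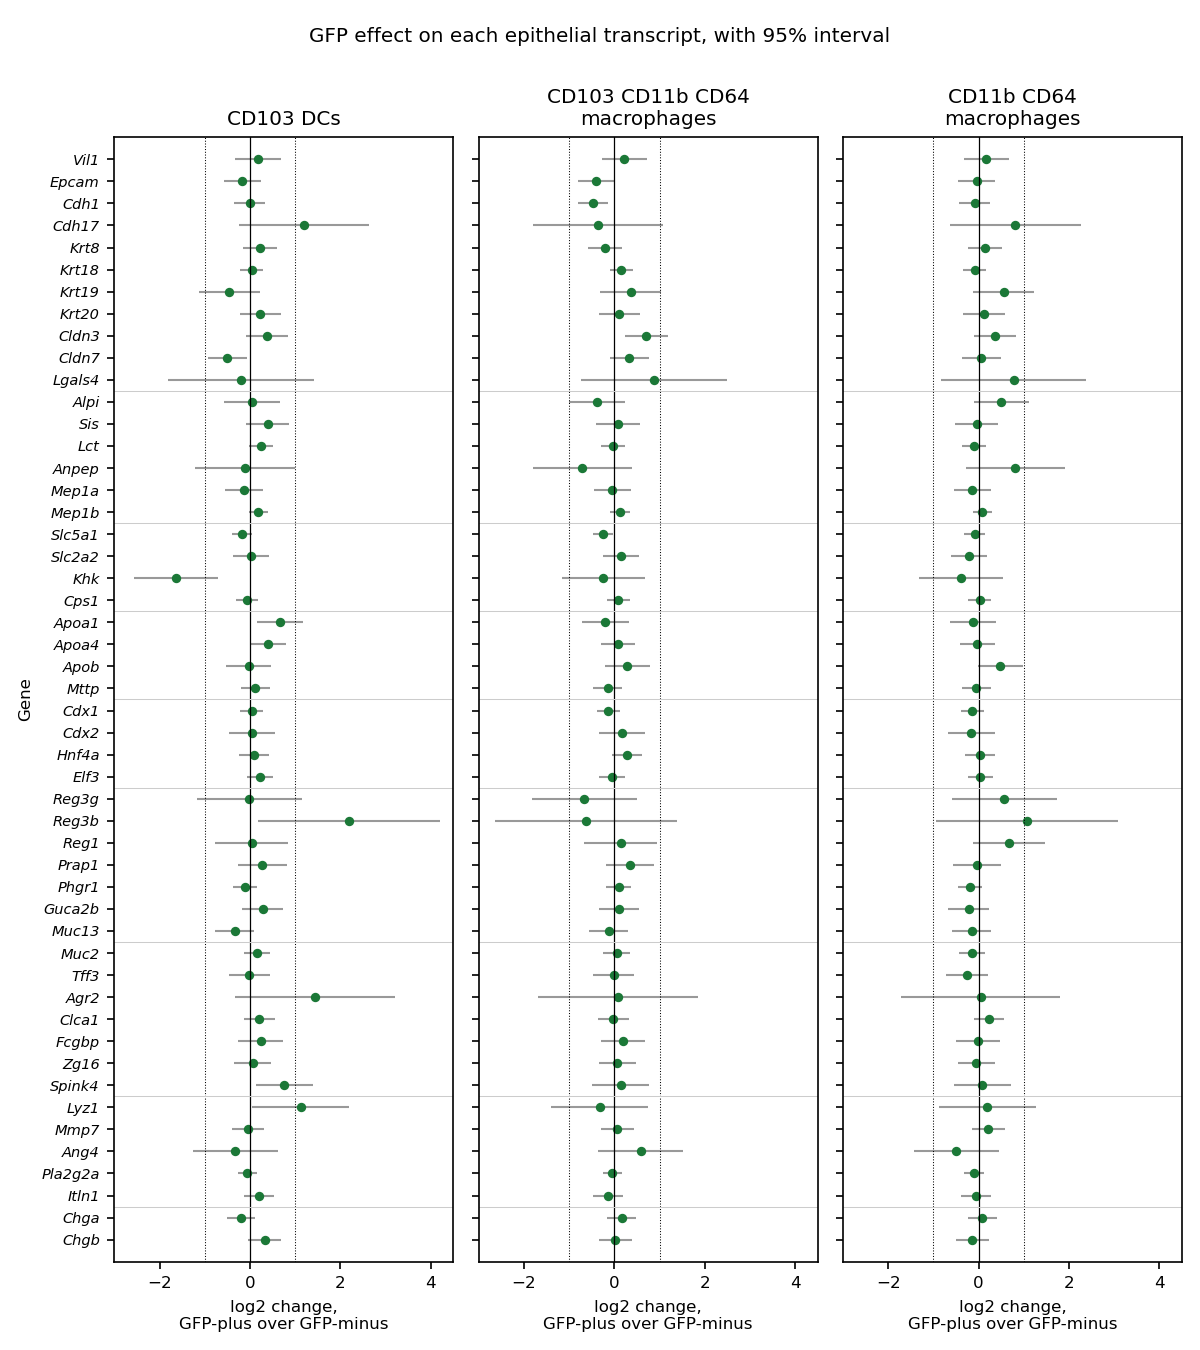
GFP-plus minus GFP-minus log2 difference of each of the 50 members (rows, by role) in CD103 dendritic cells, CD103 macrophages and the other macrophages, with points for the estimate, bars for the 95% confidence interval and dotted lines at -1 and 1. Most intervals lie between the dotted lines, and the estimates farthest from 0 in dendritic cells are Reg3b at 2.19 and Khk at -1.63.

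The members' median within-group SD was 0.245, against 0.293 over all genes, and their median range over the 18 arrays was 0.959, against 1.20. A range under 1 was seen for 27 members (54%, against 41.4% of all genes) and a range of 2 or more for 10 (20%, against 31.4%). Of the 900 member values 26 were above 1 (2.89%, against 3.01% of the values of all genes), of which 16 were on GFP-plus and 10 on GFP-minus arrays. Above 1 on at least 1 array were 12 members (24%, against 26.7% of all genes), 7 of them on exactly 1 array, so that high values were about as frequent as among all genes.

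**Figure D2:**
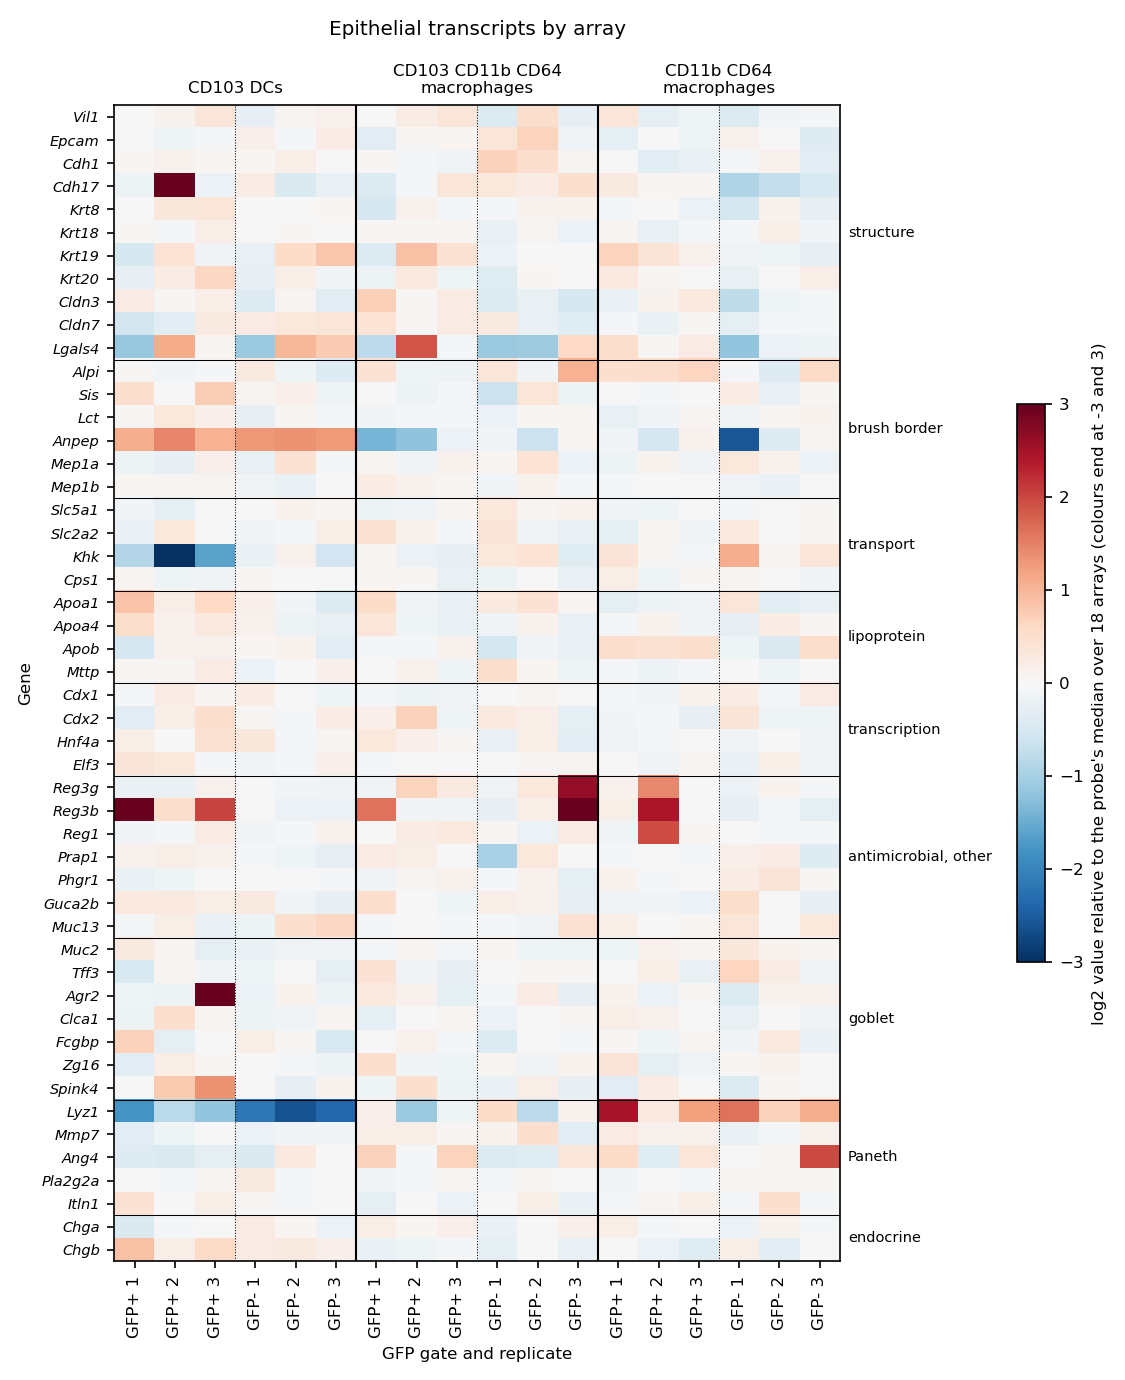
Values of the 50 members (rows, grouped by role) on the 18 arrays (columns, GFP-plus left of GFP-minus within each population), as log2 relative to each probe's median, with colours ending at -3 and 3. Most rows are pale throughout. Agr2 (4.38) and Cdh17 (3.46) are dark on 1 GFP-plus dendritic cell array each, Reg3b and Khk on several, and Lyz1 and Anpep follow the population.

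The structural genes, 11 in number, encode keratins, claudins, cadherins and the actin bundler villin. None passed in any GFP comparison. Vil1, whose promoter drives the transgene, stood at 0.02, 0.10 and 0.37 on the GFP-plus arrays of dendritic cells, against -0.25, 0.08 and 0.13 on the GFP-minus arrays, which overlap. Its difference was 0.18 ± 0.23 (SE), with an interval of -0.33 to 0.68. Vil1 was chosen for its role as the driver of the transgene.

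Claudin 3 (Cldn3), a tight junction protein, was the member with the smallest p on average over the populations. It stood at 0.73, 0.03 and 0.26 in GFP-plus CD103 macrophages, against -0.40, -0.22 and -0.49 in GFP-minus ones, so the groups did not overlap. In dendritic cells it was at 0.25, 0.04 and 0.19 in GFP-plus cells and at -0.38, 0.07 and -0.34 in GFP-minus cells, which overlap by 1 array. Its values in the other macrophages were -0.20, 0.10 and 0.28 in GFP-plus cells, against -0.77, -0.13 and -0.03 in GFP-minus cells, which overlap. The average difference was 0.49 ± 0.13 (SE), with an adjusted p of 0.136 in limma, which misses the threshold.

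E-cadherin (Cdh1), the adhesion protein of epithelial junctions, which some dendritic cells and macrophages also make, lay the other way in CD103 macrophages. It was at 0.03, -0.06 and -0.10 in GFP-plus cells, against 0.68, 0.50 and 0.09 in GFP-minus cells, without overlap. The difference was -0.47 ± 0.16 (SE; adjusted p = 0.318, limma), and the 2 probes of Cdh1 gave -0.04 ± 0.19 and -0.90 ± 0.26, so they disagree on its size. In dendritic cells Cdh1 was at 0.06, 0.12 and 0.07 in GFP-plus cells, against 0.05, 0.20 and 0.02 in GFP-minus cells. The other macrophages had it at 0.01, -0.32 and -0.21 in GFP-plus cells, against -0.03, 0.13 and -0.35 in GFP-minus cells. Both pairs of groups overlapped. The 2 probes behind these means went opposite ways in dendritic cells, at 0.45 ± 0.19 and -0.47 ± 0.26 (SE). They also differed in sign in the other macrophages, at -0.28 ± 0.19 and 0.11 ± 0.26 (SE). The adhesion molecule Epcam, named after its values were seen, had a difference of -0.40 ± 0.19 in CD103 macrophages (SE; adjusted p = 0.562, limma), with overlapping arrays. The mean of the T and innate lymphocyte marker list was between -0.164 and 0.676 on the GFP-plus arrays of this population, against 1.40 to 2.63 on the GFP-minus arrays, with 11 of its 13 measured genes below 0 in the GFP-plus minus GFP-minus difference and 1 past the threshold. The part of such cells in these values was not tested.

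Cadherin 17 (Cdh17), an intestinal adhesion protein named here after its values were seen, was above 1 on 1 array alone. It stood at -0.15, 3.46 and -0.17 in GFP-plus dendritic cells, against 0.23, -0.44 and -0.22 in GFP-minus ones. Its difference of 1.19 ± 0.67 (SE) became -0.014 without GFP-plus dendritic cell replicate 2. Within a narrower span, Cdh17 was at 0.27, 0.05 and 0.06 in GFP-plus cells of the other macrophages, against -0.89, -0.72 and -0.45 in GFP-minus cells, without overlap (difference 0.82 ± 0.67, SE; adjusted p = 0.888, limma). That SE is shared by the 3 populations and includes the scatter of the array at 3.46. In the other macrophages the SDs were 0.12 in GFP-plus and 0.22 in GFP-minus cells. In CD103 macrophages Cdh17 was at -0.40, -0.05 and 0.36 in GFP-plus cells, against 0.31, 0.22 and 0.48 in GFP-minus cells, which overlap. Galectin 4 (Lgals4), a lectin of enterocytes also named after its values were seen, ranged between -1.14 and 1.11 on GFP-plus dendritic cell arrays and between -1.12 and 0.99 on GFP-minus ones, so there it varied within both gates. Lgals4 in the other macrophages was at 0.53, 0.04 and 0.26 in GFP-plus cells, against -1.18, -0.17 and -0.15 in GFP-minus cells, without overlap (difference 0.78 ± 0.75, SE; adjusted p = 0.911, limma). The SDs there were 0.25 and 0.59, against 0.98 to 1.38 in the dendritic cell and CD103 macrophage groups, which share the SE. In CD103 macrophages Lgals4 was at -0.78, 1.89 and -0.04 in GFP-plus cells, against -1.12, -1.07 and 0.61 in GFP-minus cells, an overlapping difference of 0.88 that was 0.11 without GFP-plus replicate 2.

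Of the brush border genes, 6 in number, none passed in any GFP comparison. Intestinal alkaline phosphatase (Alpi), which dephosphorylates bacterial lipopolysaccharide, was at 0.51, 0.52 and 0.63 in GFP-plus cells of the other macrophages, against -0.03, -0.39 and 0.57 in GFP-minus cells. GFP-minus replicate 3 thus lay among the GFP-plus values, and the difference was 0.51 ± 0.29 (SE; adjusted p = 0.871, limma), or 0.29 without GFP-minus replicate 2 and 0.77 without GFP-minus replicate 3. In dendritic cells Alpi was at 0.03, -0.08 and -0.05 in GFP-plus cells, against 0.28, -0.14 and -0.40 in GFP-minus cells. In CD103 macrophages it was at 0.44, -0.13 and -0.16 in GFP-plus cells, against 0.37, -0.12 and 1.05 in GFP-minus cells. GFP-plus and GFP-minus arrays overlapped in each. The single highest value of Alpi, 1.05, was on GFP-minus CD103 macrophage replicate 3. Meprin beta (Mep1b), a metalloprotease of the brush border, was at 0.07, 0.06 and 0.09 in GFP-plus dendritic cells, against -0.12, -0.20 and -0.02 in GFP-minus ones, without overlap but within a narrow span. In CD103 macrophages Mep1b was at 0.21, 0.10 and 0.03 in GFP-plus cells, against -0.09, 0.09 and -0.04 in GFP-minus cells. In the other macrophages it was at -0.06, 0.0031 and -0.0031 in GFP-plus cells, against -0.11, -0.21 and 0.01 in GFP-minus cells. Neither population separated the gates. The average difference of Mep1b over the populations was 0.13 ± 0.06 (SE; adjusted p = 0.444, limma).

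Ketohexokinase (Khk), which phosphorylates fructose as the first step of its breakdown, came nearest to a call, and it lay lower in GFP-plus cells. It stood at -0.87, -3.07 and -1.60 in GFP-plus dendritic cells, against -0.19, 0.13 and -0.58 in GFP-minus dendritic cells. All 3 GFP-plus values were below all 3 GFP-minus values, with the GFP-plus values spread over more than 2 log2 units. The SD was 1.12 on the GFP-plus and 0.36 on the GFP-minus arrays, against 0.16 to 0.53 in the macrophage groups, which share the SE. The difference was -1.63 ± 0.43 (SE), with an interval of -2.56 to -0.71 and an adjusted p of 0.0806 in limma. Without GFP-plus dendritic cell replicate 1 it was -2.12 with an adjusted p of 0.031, and without replicate 2 it was -1.02 with an adjusted p of 0.239. After quantile scaling the difference was -0.77 (adjusted p = 0.64, limma). In CD103 macrophages Khk was at 0.06, -0.18 and -0.25 in GFP-plus cells and at 0.31, 0.40 and -0.36 in GFP-minus cells, which overlap. Its values in the other macrophages were 0.39, 0.04 and -0.04 in GFP-plus cells, against 1.10, 0.08 and 0.37 in GFP-minus cells, again with overlap. Macrophage markers also lay lower on the GFP-plus dendritic cell arrays, with a list mean of -4.77 to -4.34 against -4.29 to -3.53 on the GFP-minus arrays, 13 of 14 genes below 0 and 2 past the threshold. The T and innate lymphocyte list was at -0.413 to -0.142 on the GFP-plus arrays, against 0.0881 to 0.774 on the GFP-minus arrays, with 12 of 13 genes below 0 and Gzma past the threshold. The B and plasma cell list was at -0.435 to -0.274 on the GFP-plus arrays, against 0.161 to 0.566 on the GFP-minus arrays, with 7 of 8 genes below 0 and Ighm past the threshold. Dendritic cell markers lay lower too, with a list mean of 2.04 to 2.19 on the GFP-plus arrays, against 2.38 to 2.63 on the GFP-minus arrays. Of these 9 of 13 genes were below 0, with Gcsam past the threshold. Over all genes 11723 of 22180 were below 0, and 279 of the 351 calls were lower. The part of any of these marker lists in the dendritic cell values of the members was not tested.

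The sodium-glucose transporter Slc5a1 lay slightly below in GFP-plus cells of 2 populations without overlap. In dendritic cells it was at -0.08, -0.27 and -0.01 in GFP-plus cells, against 0.01, 0.10 and 0.05 in GFP-minus cells. In CD103 macrophages it was at -0.15, -0.11 and 0.05 in GFP-plus cells, against 0.32, 0.08 and 0.13 in GFP-minus cells. In the other macrophages Slc5a1 was at -0.11, -0.14 and -0.0011 in GFP-plus cells, against -0.03, 0.0011 and 0.04 in GFP-minus cells. These overlap. The average difference over the populations was small, at -0.17 ± 0.06 (SE; adjusted p = 0.319, limma).

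Among the 4 lipoprotein genes, apolipoproteins A-I and A-IV, the proteins of high density lipoprotein and of chylomicrons, had GFP-plus values above all GFP-minus values in dendritic cells. Apoa1 stood at 0.86, 0.21 and 0.59 in GFP-plus dendritic cells, against 0.15, -0.09 and -0.40 in GFP-minus ones. The difference was 0.67 ± 0.24 (SE; adjusted p = 0.189, limma). Apoa4, named after its values were seen, was at 0.54, 0.12 and 0.30 in GFP-plus dendritic cells, against 0.12, -0.14 and -0.23 in GFP-minus ones, a difference of 0.40 ± 0.18 (SE; adjusted p = 0.302, limma). In CD103 macrophages Apoa1 was at 0.56, -0.11 and -0.23 in GFP-plus cells, against 0.30, 0.43 and 0.09 in GFP-minus cells. The other macrophages had it at -0.30, -0.15 and -0.10 in GFP-plus cells, against 0.37, -0.31 and -0.23 in GFP-minus cells. The gates overlapped in both. Apoa4 likewise overlapped between the gates in both macrophage populations. The F-test of a GFP difference that varies with the population missed the threshold for every member (smallest adjusted p = 0.336, limma). Apob, the structural protein of chylomicrons, was at 0.51, 0.43 and 0.48 in GFP-plus cells of the other macrophages, against -0.13, -0.42 and 0.53 in GFP-minus cells. GFP-minus replicate 3 lay above all of the GFP-plus ones, and the difference was 0.48 ± 0.23 (SE; adjusted p = 0.818, limma), or 0.27 without GFP-minus replicate 2 and 0.75 without GFP-minus replicate 3. In dendritic cells Apob was at -0.51, 0.13 and 0.12 in GFP-plus cells, against 0.05, 0.11 and -0.35 in GFP-minus cells. In CD103 macrophages it was at -0.05, -0.07 and 0.13 in GFP-plus cells, against -0.53, -0.09 and -0.22 in GFP-minus cells. The gates overlapped in the first of these and not in CD103 macrophages.

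The epithelial transcription factors Cdx1, Cdx2, Hnf4a and Elf3 had 0 of 4 calls in each population. Hnf4a, which controls enterocyte metabolism, was at 0.17, -0.01 and 0.45 in GFP-plus dendritic cells, against 0.33, -0.07 and 0.08 in GFP-minus ones, which overlap. In CD103 macrophages Hnf4a was at 0.31, 0.15 and 0.03 in GFP-plus cells, against -0.21, 0.17 and -0.31 in GFP-minus cells. In the other macrophages it was at -0.12, -0.03 and 0.0003 in GFP-plus cells, against -0.10, -0.0003 and -0.11 in GFP-minus cells. Both pairs of groups overlapped. Its average difference over the populations was 0.13 ± 0.09 (SE; adjusted p = 0.672, limma).

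The C-type lectins Reg3b and Reg3g, which bind bacteria and are secreted by enterocytes and Paneth cells, showed high values on a few arrays of both gates. Reg3b and Reg3g are described after their values were seen. Their relative Reg1 was above 1 on 1 array, which was GFP-plus. The 250 bases before each start are printed because these related genes lie on 1 chromosome and shared some of their high arrays; they are RefSeq sequences on GRCm38.p6, 5′ to 3′ along the gene's strand, for Reg3b at chr6:78370635-78370884 (plus strand), Reg3g at chr6:78468875-78469124 (minus strand) and Reg1 at chr6:78425733-78425982 (plus strand). Capitals mark the letters TATAAA and TTCNNNGAA on either strand.
Reg3b: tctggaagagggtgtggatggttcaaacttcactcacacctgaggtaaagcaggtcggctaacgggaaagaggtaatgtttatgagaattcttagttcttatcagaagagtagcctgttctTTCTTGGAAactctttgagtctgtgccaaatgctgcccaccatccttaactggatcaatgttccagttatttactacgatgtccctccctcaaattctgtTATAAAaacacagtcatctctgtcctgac
Reg3g: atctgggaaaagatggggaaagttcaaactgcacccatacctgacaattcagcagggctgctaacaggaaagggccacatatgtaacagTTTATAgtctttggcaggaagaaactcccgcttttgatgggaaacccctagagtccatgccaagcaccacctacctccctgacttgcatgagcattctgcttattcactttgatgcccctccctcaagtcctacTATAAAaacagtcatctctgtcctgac
Reg1: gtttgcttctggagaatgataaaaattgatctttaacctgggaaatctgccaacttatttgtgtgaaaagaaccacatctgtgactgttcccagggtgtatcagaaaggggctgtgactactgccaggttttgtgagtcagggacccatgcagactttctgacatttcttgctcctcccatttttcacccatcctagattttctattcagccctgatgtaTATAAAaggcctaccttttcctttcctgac
Reg3b and Reg3g shared 70% of 247 aligned bases, and Reg3b and Reg1 60.5% of 223. TATAAA stood near the start in all of these, with its reverse complement TTTATA once more in Reg3g, and is found in 12.4% of 32851 promoters of this length and in 20.9% of the 43 promoters of the members (39 of the 50 genes matched). TTCNNNGAA, the letters of a STAT site, was found in Reg3b alone of the trio, and in 7.02% of all promoters against 14% of the members' promoters. Also searched were CAAAGTCCA for HNF4 and TTTAT for CDX. The first was in 0.384% of all promoters against 4.65% of the members' (2 of 43), the second in 37.3% against 37.2%. A match describes the letters and is no evidence of binding.

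Reg3b was at 3.66, 0.52 and 2.02 in GFP-plus dendritic cells, against 0.01, -0.18 and -0.19 in GFP-minus dendritic cells, so that all 3 GFP-plus values were above. The difference was 2.19 ± 0.94 (SE), with an adjusted p of 0.280 in limma. It was 1.39 without GFP-plus dendritic cell replicate 1 and 2.96 without replicate 2. In CD103 macrophages the order was mixed, at 1.63, -0.07 and -0.09 in GFP-plus cells, against -0.24, 0.20 and 3.40 in GFP-minus cells. Its values in the other macrophages were 0.18, 2.46 and -0.01 in GFP-plus cells, against -0.24, -0.05 and -0.27 in GFP-minus cells. Reg3b was thus above 1 on 5 arrays, 4 of them GFP-plus and the other GFP-minus CD103 macrophage replicate 3.

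Reg3g was above 1 on 2 arrays, both shared with Reg3b. It was at -0.11, 0.66 and 0.28 in GFP-plus CD103 macrophages, against -0.12, 0.31 and 2.63 in GFP-minus ones, and at 0.14, 1.44 and 0.01 in GFP-plus cells of the other macrophages, against -0.18, 0.10 and -0.04 in GFP-minus ones. In dendritic cells, where Reg3b was high, Reg3g stayed between -0.19 and 0.13 on all 6 arrays. Without GFP-minus CD103 macrophage replicate 3, the difference of Reg3g in that population turned to 0.18, against -0.66 with it. Reg1 was at -0.10, 1.96 and 0.06 in GFP-plus cells of the other macrophages, against -0.02, -0.03 and -0.05 in GFP-minus cells, and its high array was that of the 1.44 of Reg3g and the 2.46 of Reg3b. The difference of 0.67 ± 0.37 (SE; adjusted p = 0.862, limma) was 0.014 without that array. In dendritic cells Reg1 was at -0.07, -0.05 and 0.22 in GFP-plus cells, against -0.11, -0.04 and 0.13 in GFP-minus cells. CD103 macrophages had it at 0.02, 0.22 and 0.29 in GFP-plus cells, against 0.03, -0.17 and 0.25 in GFP-minus cells. The gates overlapped in all 3 populations. GFP-minus CD103 macrophage replicate 3 had the highest mean of the T and innate lymphocyte list, 2.63, and the part of such cells in its values was not tested. Muc13, a transmembrane mucin, was at -0.05, 0.17 and -0.20 in GFP-plus dendritic cells and at -0.16, 0.47 and 0.63 in GFP-minus ones, which overlap. In CD103 macrophages Muc13 was at -0.05, -0.0049 and -0.02 in GFP-plus cells, against -0.06, -0.11 and 0.46 in GFP-minus cells. The other macrophages had it at 0.17, -0.0036 and 0.04 in GFP-plus cells, against 0.36, 0.0036 and 0.31 in GFP-minus cells. GFP-plus and GFP-minus arrays overlapped in each. Muc13 had an average difference over the populations of -0.21 ± 0.12 (SE; adjusted p = 0.578, limma). The related members of the Reg family could share probe signal, and since probe sequences were not used here this was not tested.

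**Figure D3:**
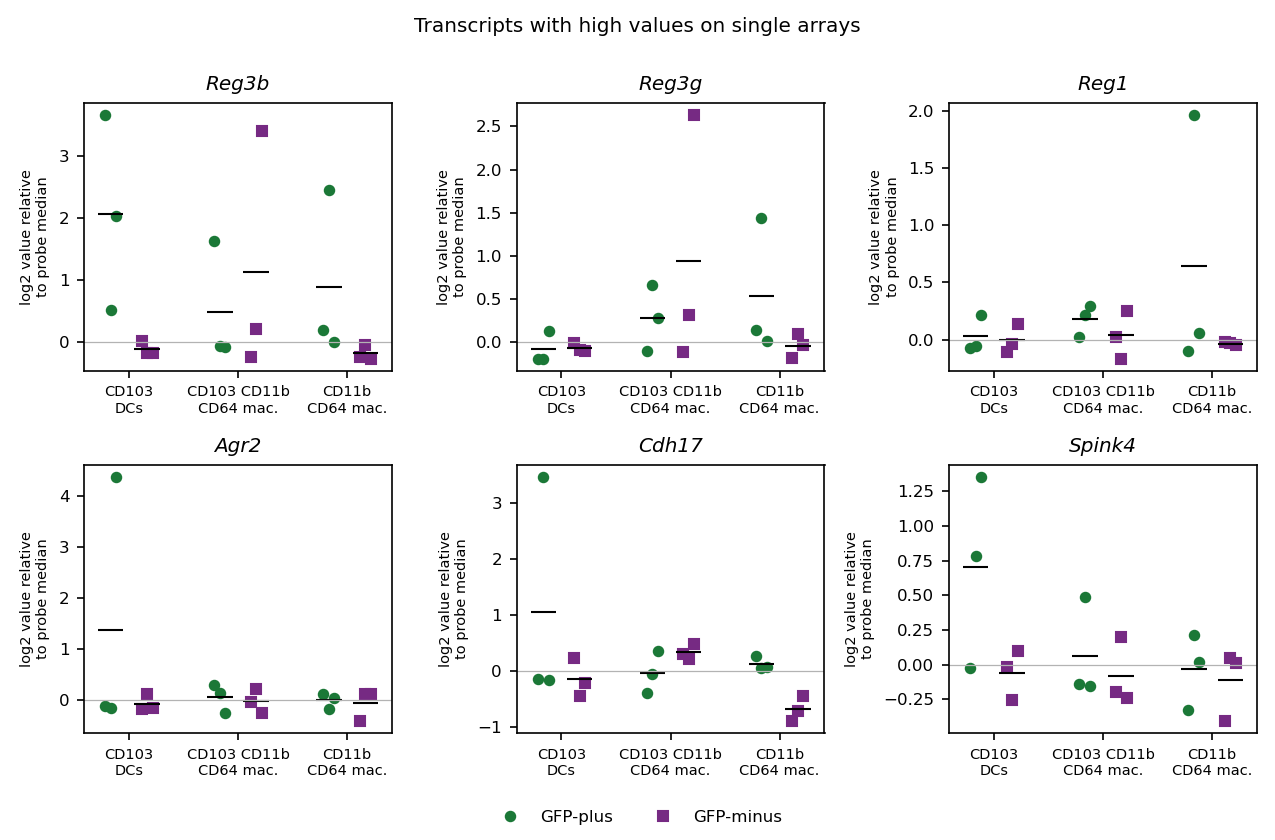
Log2 values, relative to each probe's median, of Reg3b, Reg3g, Reg1, Agr2, Cdh17 and Spink4 on each of the 18 arrays by population, with green circles for GFP-plus arrays left of purple squares for GFP-minus arrays and a bar at each mean of 3. The high values stand on single arrays, 4.38 for Agr2 and 3.46 for Cdh17 in GFP-plus dendritic cells, and Reg3b is high on arrays of both gates.

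Of the 7 goblet cell genes none passed. Agr2, a protein disulfide isomerase needed for mucin folding and named after its values were seen, was at -0.12, -0.16 and 4.38 in GFP-plus dendritic cells, against -0.18, 0.11 and -0.16 in GFP-minus ones. The difference of 1.44 ± 0.82 (SE) rested on that array, and was -0.069 without GFP-plus dendritic cell replicate 3. Muc2, the gel-forming mucin itself, also named after its values were seen, was at 0.26, 0.07 and -0.28 in GFP-plus dendritic cells, against -0.20, -0.11 and -0.10 in GFP-minus ones, so it did not share the high array of Agr2. Spink4, a protease inhibitor of goblet cells, was at -0.02, 0.79 and 1.35 in GFP-plus dendritic cells, against -0.01, -0.25 and 0.10 in GFP-minus ones. Its lowest GFP-plus value was below the highest GFP-minus value, and the difference was 0.76 ± 0.29 (SE; adjusted p = 0.224, limma). It was 0.44 without GFP-plus dendritic cell replicate 3 and 1.13 without replicate 1. In CD103 macrophages Spink4 was at -0.14, 0.49 and -0.15 in GFP-plus cells, against -0.19, 0.20 and -0.24 in GFP-minus cells. In the other macrophages it was at -0.33, 0.22 and 0.02 in GFP-plus cells, against -0.40, 0.05 and 0.01 in GFP-minus cells. Neither population separated the gates.

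Among the 5 Paneth cell genes, Lyz1 differed between populations more than any other member. Lyz1 is the Paneth cell lysozyme, and Lyz2, which is no member, is its macrophage paralog. Their upstream bases are shown because the genes lay in opposite directions by gate in dendritic cells; they are RefSeq sequences on GRCm38.p6 at chr10:117292869-117293118 for Lyz1 and chr10:117282273-117282522 for Lyz2, both on the minus strand and neither with the letters capitalised above.
Lyz1: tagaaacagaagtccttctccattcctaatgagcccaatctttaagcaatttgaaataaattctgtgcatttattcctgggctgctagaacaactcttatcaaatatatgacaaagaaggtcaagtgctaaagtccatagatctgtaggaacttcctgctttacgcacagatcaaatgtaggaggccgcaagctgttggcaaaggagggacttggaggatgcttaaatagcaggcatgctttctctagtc
Lyz2: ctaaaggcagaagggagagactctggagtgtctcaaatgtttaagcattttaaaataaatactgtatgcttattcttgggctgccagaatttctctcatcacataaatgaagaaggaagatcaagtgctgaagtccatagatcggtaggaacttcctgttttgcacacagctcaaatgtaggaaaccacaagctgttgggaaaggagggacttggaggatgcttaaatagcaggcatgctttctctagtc
The 2 sequences are identical at 80.6% of 248 aligned bases.

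Lyz1 was at -1.79, -0.82 and -1.18 in GFP-plus dendritic cells, against -2.17, -2.62 and -2.36 in GFP-minus ones, without overlap. The difference was 1.12 ± 0.50 (SE; adjusted p = 0.306, limma). Lyz2 lay the other way, at -2.48, -1.48 and -2.12 in GFP-plus dendritic cells, against -1.42, -0.98 and -0.94 in GFP-minus ones, and fell by 0.92 ± 0.20 on the log2 scale (SE; adjusted p = 0.0378, limma). This SE and p also draw on the macrophage arrays, where Lyz2 lay only between -0.18 and 0.20. The part of the lower macrophage, lymphocyte and dendritic cell markers on these arrays was not tested for either gene. The pair was compared after the values were seen. The difference of the 2 genes on each array, Lyz1 minus Lyz2, was 0.689, 0.666 and 0.938 in GFP-plus dendritic cells, against -0.751, -1.64 and -1.43 in GFP-minus ones. As the pair was picked for this pattern, the values are a description with no test. The mean of Lyz1 minus Lyz2 differed between GFP-plus and GFP-minus cells by -0.161 in CD103 macrophages and by 0.189 in the other macrophages. In CD103 macrophages Lyz1 was at 0.15, -1.10 and -0.13 in GFP-plus cells, against 0.55, -0.79 and 0.13 in GFP-minus cells. Its values in the other macrophages were 2.48, 0.30 and 1.22 in GFP-plus cells, against 1.63, 0.69 and 1.09 in GFP-minus cells. The gates overlapped in both. Cross-hybridisation between the 2 genes was not tested.

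Pla2g2a, annotated in RefSeq as a transcribed pseudogene, was the Paneth cell gene with the smallest average p. It was at -0.08, -0.01 and -0.04 in GFP-plus cells of the other macrophages, against 0.07, 0.07 and 0.03 in GFP-minus ones, without overlap, and its average difference was -0.07 ± 0.06 (SE; adjusted p = 0.748, limma). In dendritic cells Pla2g2a was at 0.01, -0.03 and 0.09 in GFP-plus cells, against 0.27, -0.04 and 0.01 in GFP-minus cells. In CD103 macrophages it was at -0.10, -0.07 and 0.03 in GFP-plus cells, against -0.03, 0.04 and -0.01 in GFP-minus cells. Both pairs of groups overlapped. Angiogenin 4 (Ang4), an antimicrobial ribonuclease named after its values were seen, was high on GFP-minus replicate 3 of the other macrophages, at 1.98, against 0.56, -0.36 and 0.37 on the GFP-plus arrays. Its difference of -0.49 there was 0.15 without that array.

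Between the populations, averaged over both GFP gates, 4 members passed, 2 higher and 2 lower in dendritic cells than in macrophages. This is 8% of the members, against 10% of all genes (3.14% higher and 6.91% lower). At an unadjusted p under 0.05 the members again counted 4, against 20.8% of all genes. Lyz1 averaged -1.82 ± 0.70 (SD, n = 6) in dendritic cells and 0.52 ± 1.00 (SD, n = 12) in macrophages, a difference of -2.34 ± 0.31 (SE; adjusted p = 0.000104, limma), or 5.06-fold lower. The 2 macrophage populations themselves lay at -1.10 to 0.55 with CD103 and at 0.30 to 2.48 in the other gate, a difference of -1.43 ± 0.36 (SE; adjusted p = 0.318, limma) in a comparison that called 0.0721% of all genes. Lyz2 was also lower in dendritic cells, with a difference of -1.62 ± 0.12 (SE; adjusted p = 2.8e-07, limma).

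Aminopeptidase N (Anpep), a brush border peptidase that is also the myeloid surface protein CD13, was the member whose arrays did not overlap between dendritic cells and macrophages (0.839% of all genes lay wholly higher in dendritic cells). It was at 1.08, 1.47 and 1.05 in GFP-plus and 1.30, 1.35 and 1.27 in GFP-minus dendritic cells, and all 12 macrophage arrays were at or below 0.14. The difference was 1.81 ± 0.31 (SE; adjusted p = 0.00122, limma), or 3.51-fold higher. In CD103 macrophages Anpep was at -1.40, -1.20 and -0.17 in GFP-plus cells, against -0.07, -0.64 and 0.08 in GFP-minus cells. The other macrophages had it at -0.07, -0.50 and 0.14 in GFP-plus cells, against -2.56, -0.39 and 0.07 in GFP-minus cells. GFP-plus and GFP-minus arrays overlapped in each. Chromogranin B (Chgb), a granule protein of enteroendocrine cells, was at 0.89, 0.20 and 0.57 in GFP-plus and 0.25, 0.26 and 0.16 in GFP-minus dendritic cells, against a macrophage mean of -0.13 ± 0.16 (SD, n = 12). Its difference was 0.52 ± 0.10 (SE; adjusted p = 0.00413, limma), with some arrays overlapping. In CD103 macrophages Chgb was at -0.21, -0.13 and -0.06 in GFP-plus cells, against -0.27, 0.02 and -0.22 in GFP-minus cells. In the other macrophages it was at -0.01, -0.17 and -0.36 in GFP-plus cells, against 0.18, -0.32 and 0.01 in GFP-minus cells. Neither population separated the gates. By GFP, the average difference of Chgb was 0.07 ± 0.10 (SE; adjusted p = 0.865, limma). Khk averaged -1.03 ± 1.16 (SD, n = 6) in dendritic cells and 0.16 ± 0.39 (SD, n = 12) in macrophages, a difference of -1.19 ± 0.26 (SE; adjusted p = 0.00830, limma), and the lowest 3 of the 18 arrays were those of GFP-plus dendritic cells. After quantile scaling this difference of Khk was -0.74 and missed the threshold (adjusted p = 0.0884, limma).

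**Figure D4:**
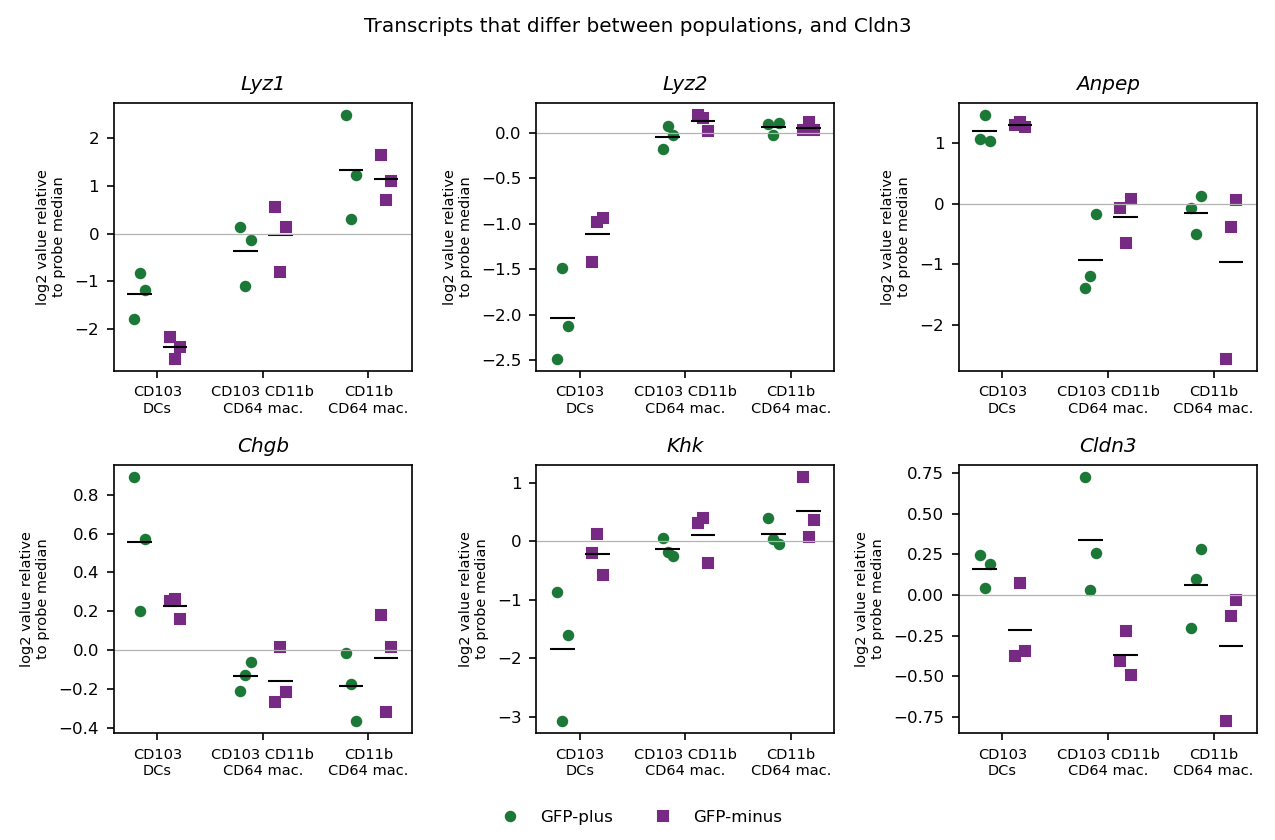
Log2 values, relative to each probe's median, of Lyz1, Lyz2, Anpep, Chgb, Khk and Cldn3 on each of the 18 arrays by population, with green circles for GFP-plus arrays left of purple squares for GFP-minus arrays and a bar at each mean of 3. Anpep is above 1 on all 6 dendritic cell arrays, Lyz1 and Lyz2 are lowest in dendritic cells, and Khk is lowest in GFP-plus dendritic cells.

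Genes listed for the same lineages outside the 50 were read in the same fit. Of 45 further absorptive genes measured, 0 passed in each population; the nearest in dendritic cells were the junction protein Cgn, at 0.95 ± 0.23 (SE; adjusted p = 0.0578, limma), and the peptide transporter Slc15a1, at 0.50 ± 0.14 (SE; adjusted p = 0.0968, limma). Of 22 further secretory genes and of 20 further enteroendocrine and tuft cell genes, 0 passed in each population, and likewise 0 of 10 stem and crypt genes. On average over the populations 1 secretory-list gene was lower, the chemokine Ccl6 at -1.37 ± 0.24 (SE; adjusted p = 0.0272, limma), and 1 crypt-list gene was higher, the ion cotransporter Slc12a2 at 1.60 ± 0.30 (SE; adjusted p = 0.0340, limma). Ccl6 and Slc12a2 also passed between dendritic cells and macrophages. With these 2 included, 4 of 22 secretory-list and 2 of 10 crypt-list genes passed there, against 10% of all genes. Whether these 2 transcripts came from the phagocytes or from epithelium was not tested.

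The epithelial families left out of the 50 held calls in the same fit, in dendritic cells and on average over the populations. In either macrophage population 0 of 4 measured genes of each family passed. Of the 4 defensin genes with a probe of their own, Defa24 was higher in GFP-plus dendritic cells by 4.34 ± 0.54 (SE; adjusted p = 0.00116, limma). Among 4 small binding proteins of fatty acids, bile acids and retinol, all 4 differences were above 0 in each population. Their median was 2.39 in dendritic cells, 2.08 in CD103 macrophages and 2.32 in the other macrophages. At an unadjusted p under 0.05 (limma) they counted 3, 3 and 4 in that order, against 15.4%, 9.2% and 6.16% of all genes. Fabp6 was higher in GFP-plus dendritic cells by 3.93 ± 0.89 (SE; adjusted p = 0.0439, limma). On average over the populations Defa24, Fabp1 and Rbp2 passed, in a comparison that called 0.41% of all genes. No test of the members against these families was run.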

How the data were processed

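Total RNA from sorted cells was amplified, biotin-labelled and hybridised to 1-colour arrays, per the labels' protocols. The authors deposited 1 table of log values, taken here as log2 and centred on each probe's median; the summarisation, normalization and log base are unstated in the sources used. Probes with 1 gene symbol (23521 of 33793) were averaged per gene. Group means were fitted to all 18 arrays with limma 3.58.1 in R 4.3.3 (lmFit, eBayes), with 1 residual spread per gene for all 6 groups. Two-sided p-values were adjusted by Benjamini-Hochberg over 22180 genes, with a threshold of 0.05. The procedure was tested on simulated data. Arrays limit precision by their number, 3 a group.

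Members and lists were chosen with earlier results of these data known. Named with every array were members that passed, the 3 with the smallest p in each GFP comparison and in their average, and 1 per role by average p; the 4 with the smallest p between populations were also named. Promoters came from RefSeq (GRCm38.p6) and were aligned with Biopython 1.88. Alternatives covered array weights, filters, scaling, probe choice, a replicate block, each population fitted alone and each array left out.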

Additional observations from a re-analysis of the deposited data

How the results depend on the processing

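Members past the threshold stayed at 0 for GFP in both macrophage populations under all 9 alternatives and with each of the 18 arrays left out. They also stayed at 0 for the average over the populations and for the F-test under the 8 alternatives that apply to them and with each array left out. In CD103 dendritic cells the count of 0 became 1 with array weights (Khk, adjusted p = 0.0409, limma), 2 without the 4 arrays of lowest weight (Khk and Spink4) and 1 among the 18 members kept by a filter on the range over arrays (Khk); with single arrays left out it was 0 to 1. The 4 members that passed between populations were 4 to 5 with single arrays left out and 3 to 5 otherwise; Khk missed the threshold after quantile scaling (-0.74, adjusted p = 0.0884, limma).

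Signs turned for differences that were small or rested on 1 array. With single arrays left out, Reg3g in CD103 macrophages ran between -1.19 and 0.18, Ang4 in the other macrophages between -0.84 and 0.15, and in dendritic cells Cdh17 between -0.014 and 1.80 and Agr2 between -0.069 and 2.20. The average GFP difference of Chgb was -0.026 after quantile scaling. The median of the members turned sign in CD103 macrophages (-0.030 to 0.075 under the other alternatives) and in the other macrophages (-0.061 to 0.0062). The cause was not tested.

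Over all genes, calls in dendritic cells numbered 351, against 118 to 711 with single arrays left out and 37 to 503 otherwise. Those in CD103 macrophages numbered 12 (5 to 60, and 0 to 95), and those in the other macrophages 6 (0 to 34, and 4 to 53). For the average they numbered 91 (25 to 172, and 86 to 183) and for the F-test 80 (41 to 226, and 35 to 193). Same-numbered arrays correlated at -0.138 to 0.248 in their deviations, 2 of 9 pairs over 0.1, so the numbers were not taken as pairs; with the replicate block the members called were 0 in each GFP comparison and 4 between populations. With 3 arrays a group and centred values, signal over background cannot be read.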
